A study of Homo sapiens with 9 samples.

Results

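Metallothioneins and the genes that set their zinc response were followed as a set of 8 genes, chosen by name from the 57500 genes of the count files. The set held 6 metallothioneins (MT1E, MT1F, MT1G, MT1M, MT1X and MT2A), the transcription factor MTF1 and the zinc exporter SLC30A1. The libraries came from poly(A)-selected RNA of HEK293T cells, a human embryonic kidney line that carries the SV40 large T antigen. Treatments of 5 h with vehicle or ligand were compared, each in 3 libraries given as biological replicates: vehicle (DMSO), 10 µM HBC530 and 10 µM MsOc3HBC. HBC530 is the dye that the Pepper RNA aptamer binds without a covalent bond, and MsOc3HBC is its analog with a mesylate leaving group on a propyl linker, through which it can alkylate RNA. All libraries were therefore of 1 cell line, 1 ligand dose and 1 time point, and no treatment in the labels was a metal salt.

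Metallothioneins are small, cysteine-rich proteins that bind zinc, copper and cadmium through their thiols. MTF1 senses zinc with its zinc fingers and, when loaded, binds metal response elements in the promoters of metallothionein genes and of SLC30A1. SLC30A1 (ZnT1) exports zinc across the plasma membrane, so that metal excess is met by binding inside the cell and by export, and MT2A and MT1X are commonly used as sensitive transcriptional readouts of free zinc, cadmium and oxidative stress in cultured human cells.

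The library totals ranged from 28056929 counts (replicate 3 of MsOc3HBC) to 62205366 (replicate 3 of DMSO). Of the markers of the HEK293 line, 7 of 7 lay between 2.07 and 368 CPM (counts-per-million) in every library, whereas 6 markers of blood, liver, endothelium and heart muscle lay under 0.2 CPM. Replicate 3 of HBC530 and replicate 3 of MsOc3HBC stood apart on the first principal component of 18041 genes, with scores of 37.1 and 49.0, while the other 7 libraries lay between -19.9 and -4.51. These were also the libraries with the lowest totals. The fold changes of the members against DMSO are given with and without them.

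The metal response element was searched for in the promoters of the set, because it is the sequence that MTF1 binds. Its core was spelled TGCACNC or TGCGCNC and was searched on both strands in the 250 bases before the RefSeq start. Entries were at hand for 4 of the 8 members (MT2A, MT1X, MTF1 and SLC30A1). The sequences below are from RefSeq on GRCh38.p14, 5′ to 3′ on the strand of the gene, with each match in capitals. They show the most abundant members MT2A (chr16:56608334-56608583, plus strand) and MT1X (chr16:56682220-56682469, plus strand), the exporter SLC30A1 (chr1:211579162-211579411, minus strand) and, for contrast, MT1H (chr16:56669564-56669813, plus strand), a neighbour without a single count. The windows of MT2A and MT1X overlap the genes as counted, which begin upstream of the RefSeq start.
MT2A: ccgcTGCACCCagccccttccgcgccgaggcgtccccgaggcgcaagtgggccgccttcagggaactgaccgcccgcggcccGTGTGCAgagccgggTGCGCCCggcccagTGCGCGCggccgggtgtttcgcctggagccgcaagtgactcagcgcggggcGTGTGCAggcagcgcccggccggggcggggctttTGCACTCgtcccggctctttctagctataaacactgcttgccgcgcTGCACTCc
MT1X: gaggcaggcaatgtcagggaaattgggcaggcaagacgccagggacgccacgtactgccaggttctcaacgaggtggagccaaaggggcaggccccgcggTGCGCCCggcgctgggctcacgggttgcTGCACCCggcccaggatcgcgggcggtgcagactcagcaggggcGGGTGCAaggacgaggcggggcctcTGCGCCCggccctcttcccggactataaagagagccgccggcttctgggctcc
SLC30A1: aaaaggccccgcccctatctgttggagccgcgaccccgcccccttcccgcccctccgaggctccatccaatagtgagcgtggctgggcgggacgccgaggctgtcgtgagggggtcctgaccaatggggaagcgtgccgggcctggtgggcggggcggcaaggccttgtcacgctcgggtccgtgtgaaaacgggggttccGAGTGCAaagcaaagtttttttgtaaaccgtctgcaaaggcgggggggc
MT1H: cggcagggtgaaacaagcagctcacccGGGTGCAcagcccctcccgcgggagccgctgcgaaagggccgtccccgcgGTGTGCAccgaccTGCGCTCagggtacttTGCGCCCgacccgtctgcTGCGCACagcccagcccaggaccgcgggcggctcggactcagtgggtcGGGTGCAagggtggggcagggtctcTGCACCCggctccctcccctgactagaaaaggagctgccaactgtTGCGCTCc
The MT2A window held 7 matches, and 0.0313% of 35116 promoters of the same length held as many or more. MT1X held 4 matches (0.370% of promoters with as many or more) and SLC30A1 held 1 (24.8% of promoters with as many or more). No match to these letters lay in the MTF1 window. Among the metallothioneins listed on chromosome 16, pseudogenes apart, promoter entries were at hand for 5 of 11. MT1H held 8 matches (0.0171% of promoters with as many or more), and MT1B and MT4 held 3 each (1.58%). These 3 genes had 0 counts in all libraries.

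Of the 8 members, 5 were measurable and 3 were too low to measure in every comparison by edgeR's filter on low counts. MT1G (chromosome 16, 56666731 to 56668065, minus strand) and MT1M (56632233 to 56633986, plus strand) had 0 counts in 9 of 9 libraries. A count of 0 allows a level of up to 0.0482 CPM in the deepest library and 0.107 CPM in the shallowest, counting error only. This limit is 3 counts over the library total, an approximate upper 95% bound without a lower one. MT1E (56625475 to 56627112, plus strand) had a single count, in replicate 2 of MsOc3HBC. This is 0.0189 CPM of that library's total, with an exact 2-sided 95% interval of 0.000478 to 0.105 CPM. These members were thus too low to measure with vehicle and with either ligand, and no comparison could be made for them.

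The near-identity of metallothionein paralogs can cost counts when only uniquely placed reads are kept. Of all 64-base windows of the annotated exons, 10.9% of MT1E, 8.81% of MT1G and 5.31% of MT1M occurred elsewhere in the genome, against 1.13% of MT2A, 0.409% of MT1X and 0% of MT1F. At 128 bases the share was 0% for all 8 members. Most of the annotated exonic sequence of MT1E, MT1G and MT1M thus had no exact copy elsewhere at either length. Windows across exon junctions and inexact copies were not searched, so the share for the mature mRNA is not known. MT1X shares 321 exonic bases on the same strand with the gene ENSG00000259827, which had 0 counts, and reads falling on both would have been left out at default settings.

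The lack of counts extended across the locus. The metallothionein family was listed by name as 12 genes that are not pseudogenes, all of them matched in the count files. Of these, 11 lie on chromosome 16 between 56565049 and 56684196. Of the 12, 8 had 0 counts in all libraries: MT1A, MT1B, MT1G, MT1H, MT1M, MT1HL1, the brain-enriched MT3 and the squamous-epithelial MT4. MT2A, MT1X and MT1F gave all but 1 of the 9104 metallothionein counts, out of 435594032 counts in total. The 9 listed pseudogenes held 25 counts together, and 6 of them held none. The expressed and the uncounted genes were interleaved, with MT1F lying between MT1B and MT1G.

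Levels were compared between genes only per exonic length, as TPM (transcripts-per-million). MT2A was the highest, at 22.6 ± 0.341 TPM with DMSO (mean ± SD, n = 3), 25.8 ± 0.589 with HBC530 and 24.1 ± 2.69 with MsOc3HBC. MT1X followed at 18.2 ± 1.33, 19.7 ± 1.98 and 20.9 ± 2.40 TPM. SLC30A1 lay at 13.9 ± 1.20, 11.6 ± 3.07 and 11.9 ± 1.36 TPM. MTF1 lay at 7.37 ± 0.553, 6.97 ± 1.47 and 7.19 ± 1.31 TPM, and MT1F at 2.48 ± 0.254, 2.52 ± 0.198 and 3.17 ± 0.334 TPM. With the exonic lengths used, this order held in 9 of 9 libraries for each pair of neighbours. The replicates of neighbours overlapped only for MT2A and MT1X with MsOc3HBC and for SLC30A1 and MTF1 with HBC530. With DMSO, 68.1% of the tested genes had a lower TPM than MT2A and 31.1% had a lower TPM than MT1F. At the exonic lengths used, the abundant metallothioneins thus stood above the middle of the transcriptome without being among its highest genes. The exonic lengths of MT2A (1299 bases) and MT1X (1773 bases) equal their whole spans, introns included. A length of the mature mRNA alone would give both a higher TPM and rank, and the order of the members could change. MT1X had more counts than MT2A over the 9 libraries (4411 against 4041), so MT2A stood above it only per these lengths.

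Each member's level across treatments was followed as CPM scaled with TMM factors. MT2A (chromosome 16, 56608199 to 56609497, plus strand), the main metallothionein isoform of most human cells, lay at 8.51, 8.63 and 8.76 CPM with DMSO in replicates 1 to 3. It lay at 9.77, 9.90 and 10.95 CPM with HBC530 and at 8.49, 8.43 and 11.4 CPM with MsOc3HBC. All HBC530 libraries were above all DMSO libraries, whereas with MsOc3HBC only replicate 3 was.

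MT1X (56682424 to 56684196, plus strand) lay at 9.93, 9.26 and 9.17 CPM with DMSO, 9.54, 9.59 and 12.9 with HBC530, and 10.6, 9.42 and 13.5 with MsOc3HBC. Replicate 3 was the highest library of each ligand, and both ligand groups overlapped DMSO. MT1F (56657694 to 56660698, plus strand), with 57 to 85 counts per library, lay at 1.46, 1.40 and 1.26 CPM with DMSO, 1.41, 1.26 and 1.70 with HBC530, and 1.69, 1.56 and 2.18 with MsOc3HBC. All MsOc3HBC libraries were above all DMSO libraries for MT1F, and the HBC530 libraries overlapped DMSO.

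SLC30A1 (chromosome 1, 211571568 to 211578742, minus strand) lay at 23.7, 21.7 and 21.3 CPM with DMSO, 21.8, 20.7 and 14.6 with HBC530, and 18.7, 20.6 and 19.0 with MsOc3HBC. Its MsOc3HBC libraries were all below DMSO, and replicate 3 of HBC530 was the lowest of all. MTF1 (chromosome 1, 37809567 to 37859620, minus strand) lay at 17.95, 17.7 and 16.4 CPM with DMSO, 17.4, 18.9 and 14.2 with HBC530, and 18.1, 18.6 and 14.9 with MsOc3HBC. Replicate 3 was again the lowest library of each ligand, and all groups overlapped. In bulk RNA, fewer cells that use a gene and less of its RNA per cell cannot be told apart.

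**Figure D1:**
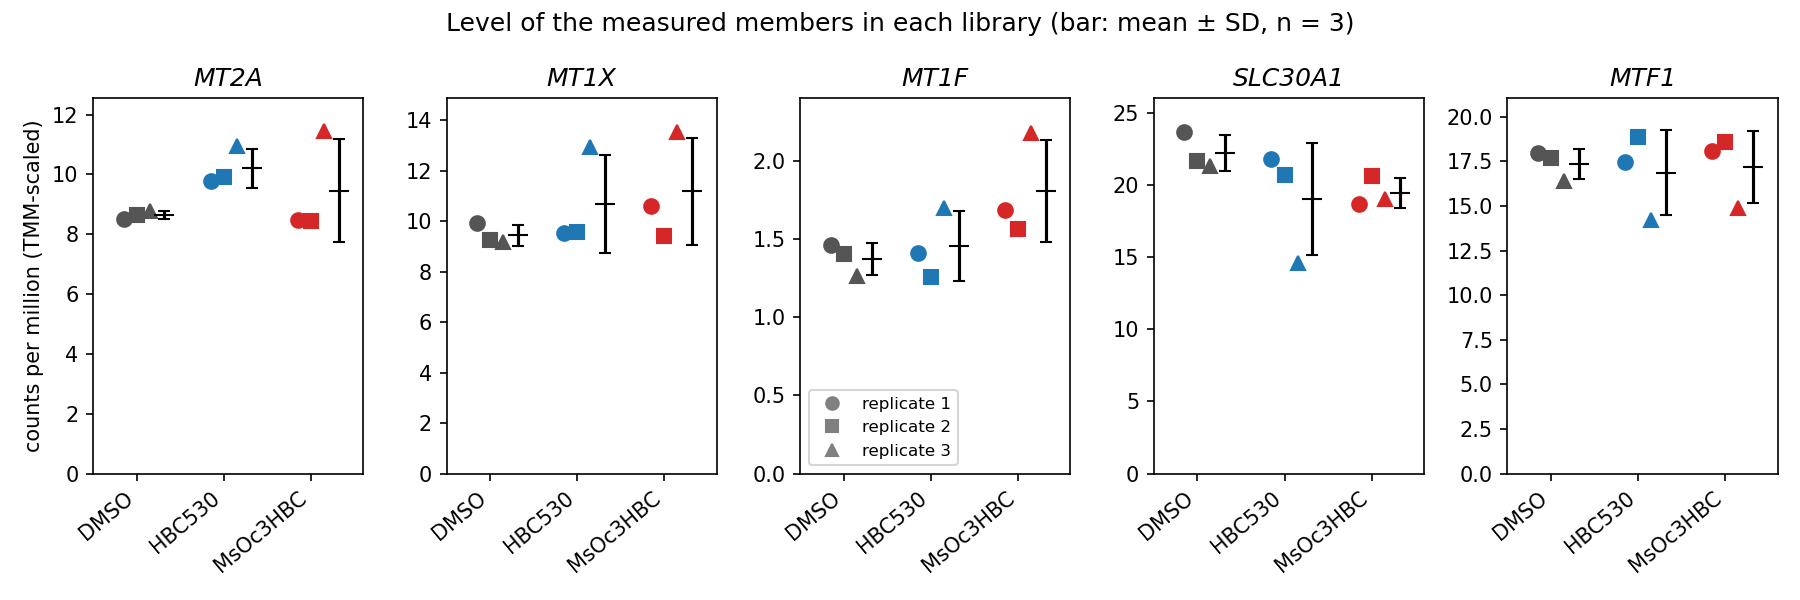
Levels of the 5 measurable members (vertical axis: CPM, TMM-scaled, from 0) by treatment, with a point per library, its shape giving the replicate, and a bar for the mean ± SD of 3 libraries. Replicate 3 of either ligand (triangles) is the highest library of its group for MT2A, MT1X and MT1F and the lowest for MTF1.

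The effect of the non-covalent dye was asked with HBC530 against DMSO. None of the 5 measurable members passed the test: 0 had an adjusted p under 0.05 in edgeR's quasi-likelihood test, beside 0.017% of all genes tested (3 of 17684), and DESeq2 called 0 as well, beside 0.136%. At an unadjusted p under 0.05, 1 member passed, beside 5.07% of all genes. That member was MT2A, with a log2 fold change of 0.25 (SE 0.101, 95% interval 0.03 to 0.48, unadjusted p = 0.0305, edgeR adjusted p = 0.751). It was also the only member whose libraries did not overlap with DMSO, as for 13.7% of all genes. Over 17 alternative settings its log2 fold change stayed between 0.15 and 0.29, with an unadjusted p under 0.05 in 10 of them and adjusted p between 0.482 and 0.960. Without replicate 3 of HBC530, a fit that enters these settings repeatedly, the log2 fold change was 0.20 (edgeR adjusted p = 0.935).

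The other members differed less from DMSO relative to their spread. MT1X had a log2 fold change of 0.19 (95% interval -0.12 to 0.49) and MT1F of 0.08 (-0.30 to 0.46), which became 0.03 and -0.03 without replicate 3. SLC30A1 lay at -0.21 (-0.51 to 0.09), which was -0.06 without replicate 3, and MTF1 at -0.02 (-0.27 to 0.22), which was 0.08 without it. The edgeR adjusted p of these 4 members lay between 0.751 and 0.958. The median log2 fold change of all genes was 0.0046.

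The effect of the covalent ligand was asked with MsOc3HBC against DMSO. Again 0 of 5 members were called, beside 0.154% of all genes (27 of 17514), and 0 had an unadjusted p under 0.05, beside 10.9% of all genes. MT1F had the largest value, a log2 fold change of 0.39 (SE 0.184, 95% interval -0.01 to 0.80, edgeR adjusted p = 0.469), which was 0.26 without replicate 3. SLC30A1 lay at -0.17 (SE 0.0964, 95% interval -0.38 to 0.04, edgeR adjusted p = 0.537) and at -0.16 without replicate 3. MT1F and SLC30A1 were the 2 members whose libraries did not overlap with DMSO, as for 18.1% of all genes. With trends in GC content and exonic length removed, SLC30A1 lay at -0.24 (edgeR unadjusted p = 0.00599, adjusted p = 0.184).

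MT1X had a log2 fold change of 0.26 with MsOc3HBC (95% interval -0.05 to 0.56, edgeR adjusted p = 0.529), MT2A of 0.14 (-0.16 to 0.44, adjusted p = 0.727) and MTF1 of 0.01 (-0.23 to 0.25, adjusted p = 0.979). Without replicate 3, MT1X was at 0.10, MT2A at -0.01 and MTF1 at 0.10. Both comparisons with DMSO use the same 3 DMSO libraries, so a like sign in the 2 of them is not a repeat. Together the 15 intervals of the members over 3 comparisons all lay within -1 to 1 on the log2 scale, and 11 of them within -0.5 to 0.5. The bound farthest from 0 was 0.80, or 1.74-fold, for MT1F with MsOc3HBC.

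**Figure D2:**
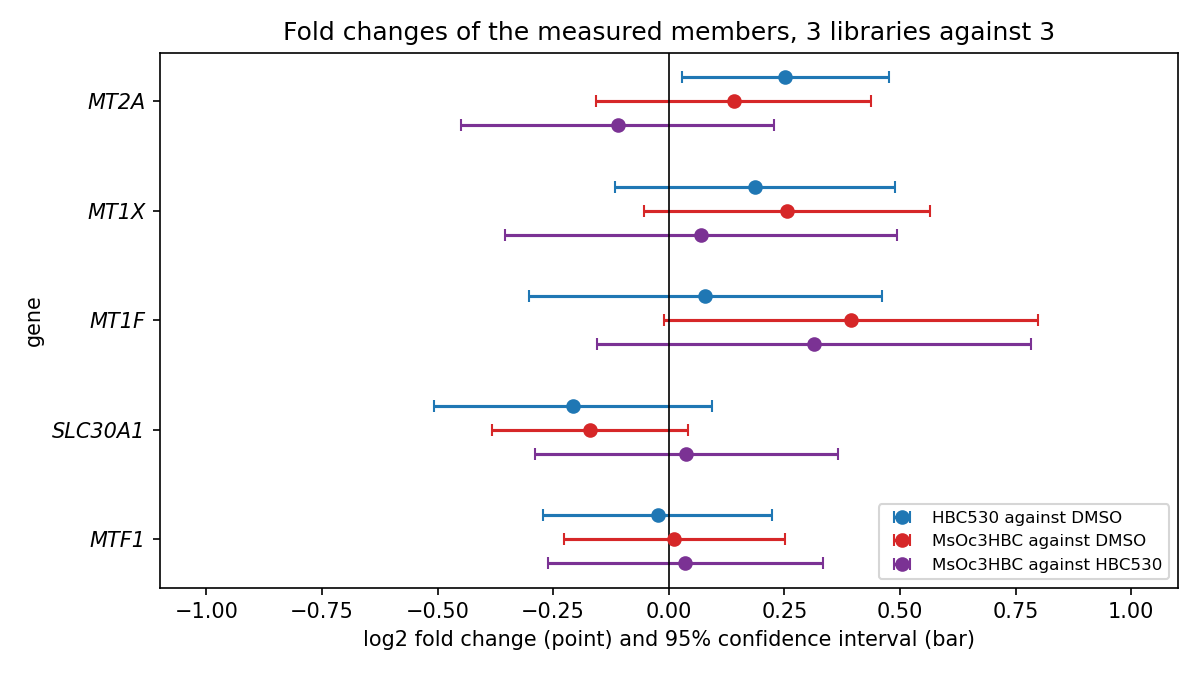
Log2 fold changes of the 5 measurable members (points; horizontal axis) with their 95% confidence intervals (bars) from edgeR, 3 libraries against 3, with a colour per comparison. Of the 15 intervals, the one of MT2A with HBC530 (0.03 to 0.48) is the only interval that leaves out 0.

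The 2 ligands form 1 matched pair, with equal dose and time, whose difference in structure is the reactive handle. No member passed the test of MsOc3HBC against HBC530 (0 of 5 called, beside 0% of all genes, 0 of 17397), and 0 members had an unadjusted p under 0.05, beside 7.32% of all genes. No member's libraries separated the ligands, beside 15% of all genes. The difference of MsOc3HBC minus HBC530 was 0.31 on the log2 scale for MT1F (95% interval -0.15 to 0.78, edgeR adjusted p = 0.770), 0.07 for MT1X (-0.35 to 0.49, adjusted p = 0.962) and -0.11 for MT2A (-0.45 to 0.23, adjusted p = 0.902). It was 0.04 for both MTF1 (-0.26 to 0.33, adjusted p = 0.975) and SLC30A1 (-0.29 to 0.36, adjusted p = 0.978). These intervals leave room for differences of up to 0.78 in size, so equal action was not shown. Without replicate 3 of both ligands, MT2A was lower with MsOc3HBC by a log2 value of -0.21 (edgeR unadjusted p = 0.0373, adjusted p = 0.172), in a fit that called 0 members and 9.16% of all genes, and the other members lay between -0.10 and 0.29.

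The summed metallothionein level repeated the pattern of its parts. It was 19.9, 19.3 and 19.2 CPM with DMSO (19.5 ± 0.379, SD, n = 3), 20.7, 20.7 and 25.6 with HBC530 (22.4 ± 2.81) and 20.8, 19.4 and 27.2 with MsOc3HBC (22.5 ± 4.13). Replicates 1 and 2 of either ligand lay between 19.4 and 20.8 CPM, and replicate 3 of each lay above all other libraries. The make-up of the sum is given as mean shares over the 3 libraries of a treatment. MT1X gave 48.5% of it with DMSO, 47.6% with HBC530 and 49.8% with MsOc3HBC, and MT2A gave 44.4%, 45.9% and 42.1%. MT1F gave 7.06%, 6.50% and 8.06%, with 8.02 to 8.11% in the MsOc3HBC libraries, 6.57 to 7.35% with DMSO and 6.05 to 6.83% with HBC530. The MT1F share of the MsOc3HBC libraries thus lay above that of all other libraries, and was not tested.

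In each library the trend of the log2 level with GC content and exonic length was fitted over all genes, and the members were set against it. In replicate 3 of HBC530, the log2 level against the DMSO mean was 0.49 for MT1X where the trend at its GC content and length gave 0.17, 0.38 for MT2A with a trend of 0.25, and 0.34 for MT1F with a trend of 0.20. In replicate 3 of MsOc3HBC, MT1X lay at 0.55 with a trend of 0.08, MT2A at 0.43 with 0.06 and MT1F at 0.68 with 0.05. The trend thus took up more of the metallothionein values in the HBC530 library than in the MsOc3HBC library. For MTF1 the values were -0.25 with a trend of -0.20, and -0.19 with a trend of -0.17, so that its level in both libraries was close to the trend. SLC30A1 lay at -0.57 with a trend of -0.11 with HBC530, and at -0.20 with a trend of 0.07 with MsOc3HBC. With the trends removed, MT2A had a log2 fold change of 0.15 with HBC530 (edgeR unadjusted p = 0.102). The part of library quality in the replicate 3 values was not tested.

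**Figure D3:**
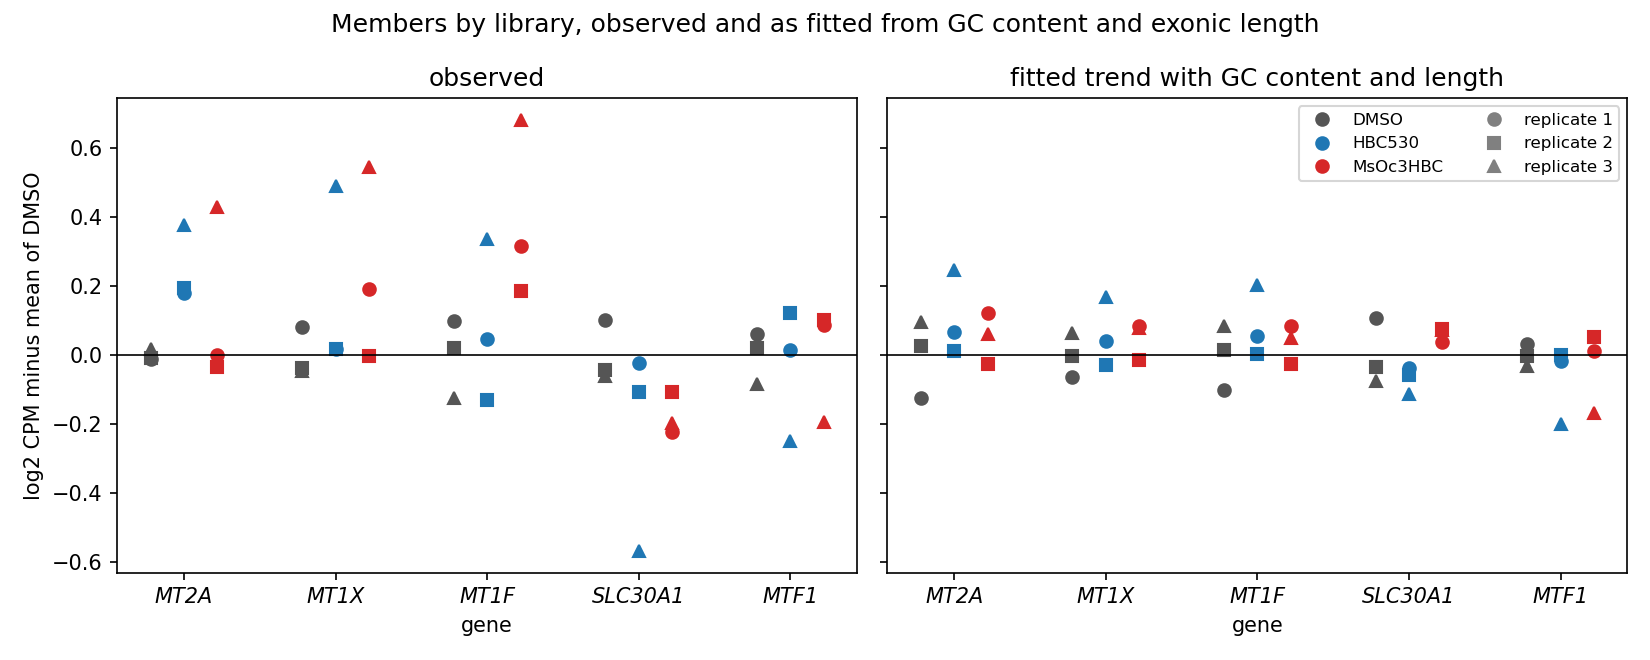
Log2 CPM of the measurable members minus the DMSO mean (vertical axis), a point per library, as observed (left) and as fitted from GC content and exonic length over all genes (right). The triangles of the ligands, replicate 3, reach 0.68 for MT1F as observed and 0.25 for MT2A as fitted.

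The surrounding metal genes were counted on lists of 75 further genes, of which 55, 55 and 56 were tested in the 3 comparisons. None was called by edgeR at an adjusted p under 0.05. At an unadjusted p under 0.05, 5 passed for HBC530 against DMSO (9.09%, beside 5.07% of all genes), 12 for MsOc3HBC against DMSO (21.8%, beside 10.9%) and 9 for MsOc3HBC against HBC530 (16.1%, beside 7.32%). DESeq2 called 0, 2 and 3 of the list genes, beside 0.136%, 0.851% and 0.351% of all genes. The lists were chosen with earlier results of these data known, so these shares are no test of enrichment.

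Zinc transporters showed small values of either sign. Of the exporters and vesicle loaders of the SLC30 family, SLC30A1 included, 9 of 11 were tested, with median log2 fold changes of -0.09 for HBC530 and -0.01 for MsOc3HBC against DMSO, and 0 had an unadjusted p under 0.05. Of the importers of the SLC39 family, 11 of 14 were tested against DMSO, with medians of -0.04 and -0.07. SLC39A3, a plasma membrane importer, had a log2 fold change of 0.28 with HBC530 (edgeR unadjusted p = 0.0337, adjusted p = 0.751), which was 0.18 without replicate 3 of HBC530. SLC39A8, which carries zinc, manganese and cadmium, had -0.32 with MsOc3HBC (edgeR unadjusted p = 0.00576, adjusted p = 0.303), and SLC39A1 had -0.25 (adjusted p = 0.408).

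Of 7 other genes with metal response elements or a link to MTF1, all were tested, and 3 had an unadjusted p under 0.05 with MsOc3HBC, all with negative values, beside 10.9% of all genes. CITED2, a transcriptional co-regulator, had a log2 fold change of -0.52 (SE 0.0927, edgeR adjusted p = 0.0728), PGF, a growth factor of the VEGF family, -0.59 (SE 0.115, adjusted p = 0.105), and CEBPA -0.28 (adjusted p = 0.363). DESeq2 called CITED2 and PGF, beside 0.851% of all genes. Without replicate 3 of MsOc3HBC, edgeR called both as well, CITED2 at -0.49 (adjusted p = 0.0284) and PGF at -0.66 (adjusted p = 0.0254), beside 0.421% of all genes. The median of the list was 0.0015, since the other 4 genes had values above 0, and with HBC530 against DMSO 0 of its genes had an unadjusted p under 0.05.

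Copper and iron handling genes covered the other metals that cells keep bound. CCS, the copper chaperone of superoxide dismutase, had a log2 fold change of 0.37 with HBC530 (edgeR unadjusted p = 0.0218, adjusted p = 0.751) and 0.26 with MsOc3HBC (adjusted p = 0.382). Without replicate 3 these were 0.19 and 0.22. The medians of the 10 copper genes were 0.02 and 0.04. TFRC, the transferrin receptor, had -0.42 with MsOc3HBC (adjusted p = 0.327), which was -0.29 without replicate 3, and ACO1, which as IRP1 binds iron-responsive elements, had -0.26 (adjusted p = 0.369). The medians of the 7 iron genes were -0.15 and -0.13.

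The list of stress genes that cadmium and thiol-reactive compounds induce outside MTF1 held the largest difference between the ligands among the listed genes. HSPA1A and HSPA1B, near-identical copies of inducible HSP70 whose counts cannot be assigned with certainty, had log2 fold changes of 0.43 and 0.41 with HBC530 against DMSO (edgeR adjusted p = 0.740 and 0.751). With MsOc3HBC against DMSO HSPA1A had -0.33 (adjusted p = 0.323) and DNAJB1, its co-chaperone, -0.19 (adjusted p = 0.457). Between the ligands, MsOc3HBC minus HBC530, HSPA1A had -0.76 (SE 0.0926, adjusted p = 0.248), HSPA1B -0.58 (adjusted p = 0.643) and DNAJB1 -0.35 (adjusted p = 0.643). These were the only 3 of the 7 stress genes with an unadjusted edgeR p under 0.05 between the ligands, beside 7.32% of all genes. The median of the 7 was -0.21, and 2 of them had values above 0. Of the 6 glucocorticoid-induced genes, a class to which MT2A also belongs, TSC22D3 had 0.32 with MsOc3HBC (adjusted p = 0.323), while KLF9 had -0.31 with HBC530 and -0.32 with MsOc3HBC (adjusted p = 0.751 and 0.432). Without replicate 3 of the ligand, KLF9 was at -0.18 and -0.20. The medians for HBC530 and MsOc3HBC against DMSO were 0.11 and -0.17 over the 7 stress genes and -0.11 and -0.17 over the 6 glucocorticoid-induced genes.

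Deviations from the group means correlated at 0.166, 0.368 and 0.433 between the ligands in replicates 1 to 3. For HBC530 and DMSO the values were 0.0872, 0.0131 and 0.172, so the lowest ligand value was not above all of these. For MsOc3HBC and DMSO they were -0.111, 0.00998 and 0.0412. The 2 replicate 3 libraries that stood apart also shift their group means, so the 3 ligand values are not independent. Pairing the ligands was thus a choice made from the same data. The ligand pair was also fitted with the replicate as a block, and calls under the block rest on that choice. The block called 1990 genes in place of 0, or 11.4% of all genes, and 11 of the 56 tested list genes, but 0 members. HSPA1A (blocked edgeR adjusted p = 0.000102), HSPA1B (2.77e-05), DNAJB1 (0.00274), PGF (0.00327), CITED2 (0.00259), CEBPA (0.0106) and SLC39A1 (0.0084) were then lower with MsOc3HBC than with HBC530, and TSC22D3 (0.0096) was higher. Their unblocked log2 differences were -0.50 for PGF, -0.35 for CITED2, -0.33 for CEBPA, -0.24 for SLC39A1 and 0.24 for TSC22D3, each with an adjusted p of 0.643 or 0.649. SLC39A13, at -0.20 (adjusted p = 0.662), was not called under the block (0.0593). With the GC and length trends also removed, CEBPA and SLC39A1 were no longer called (adjusted p = 0.236 and 0.183). Without replicate 3 of both ligands and without a block, 12 list genes were called, beside 9.16% of all genes, among them HSPA1A at -0.70 (edgeR adjusted p = 0.000109).

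The genes whose levels moved most like a member were looked up over the 9 libraries among 18040 genes. For MT1X they were NDUFA7, a subunit of respiratory complex I (Pearson's r = 0.993), TMEM256 (0.993) and the ribosomal pseudogene RPL7P9 (0.991). For MT2A they were BCAS4 (0.983), CYP20A1 (0.978) and SRSF7, a splicing factor (0.971). For SLC30A1 they were ENSG00000249492 (0.971), PDE12 (0.969) and LRPPRC, which binds mitochondrial mRNAs (0.968). ENSG00000249492 was low, from 0.238 CPM in replicate 3 of HBC530 to 0.938 CPM in replicate 1 of DMSO. The points of these correlations share the 2 replicate 3 libraries that stood apart. Over the other 7 libraries r lay between 0.921 and 0.972 for the MT1X genes, between 0.915 and 0.979 for the MT2A genes and between 0.865 and 0.923 for the SLC30A1 genes. The genes were picked by their r over all 9 libraries, which include these 7, so the latter values are no independent check. None of these 9 genes is a metallothionein. Among the metallothioneins, Pearson's r over the 9 libraries was 0.823 for MT1X and MT2A (Spearman's rho = 0.55), 0.876 for MT1X and MT1F (rho = 0.767) and 0.576 for MT1F and MT2A (rho = 0.233). Without the 2 replicate 3 libraries r was -0.108, 0.735 and -0.504, so the relations of MT2A with MT1X and MT1F rested on those libraries.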

How the data were processed

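Poly(A) RNA of the 9 libraries was sequenced with paired-end reads. Trimming was done by the authors with Trimmomatic 0.36, alignment to GRCh38 with STAR 2.5.2b, and counting of unique hits with featureCounts of Subread 1.5.2. The deposited files hold these raw counts per gene, without normalization. The strand setting, the annotation release and whether pairs were counted once are not given in the sources used here. The authors' own DESeq2 tables, which hold their fold changes and p-values against DMSO, were not used. Of 57500 gene IDs, 56410 matched a symbol, and 56381 of these overlapped their GENCODE position.

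Members, lists and naming rule were chosen with earlier results of these data known. Groups and replicate numbers came from the sample labels. Each comparison was fitted on its 6 libraries in R 4.3.3 with edgeR 4.0.16 (filterByExpr with a minimum count of 10, TMM scaling, quasi-likelihood F test, Benjamini-Hochberg adjustment over all genes tested, called at an adjusted p under 0.05). The scripts were tested on simulated data. Besides the members, the text names, per list and comparison, at most the 4 genes with the smallest unadjusted p under 0.05, and the 3 genes most correlated with MT1X, MT2A and SLC30A1. CPM used TMM factors, log2 CPM a prior count of 1, and TPM the exonic length in the files. The lists held the metallothionein family and its pseudogenes, SLC30 and SLC39 transporters, MTF1-linked genes, copper, iron, stress and glucocorticoid-induced genes. SCO2 was not matched. Of the 7 markers of other cells, 1 is not reported here.

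Alternatives were DESeq2 1.42.0, limma-voom 3.58.1, RLE and upper-quartile scaling, no filter, a minimum of 10 counts per library, 1 fit over 9 libraries, the replicate block, removal of GC and length trends (splines with 5 degrees of freedom) with and without the block, each library left out, and replicate 3 of both ligands left out. Whether replicate numbers pair libraries was checked by correlating their deviations from the group means: 0.0872, 0.0131 and 0.172 for HBC530 and DMSO, -0.111, 0.00998 and 0.0412 for MsOc3HBC and DMSO, and 0.166, 0.368 and 0.433 for the ligands, which alone were taken as paired, from the data and not from a stated batch.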

Additional observations from a re-analysis of the deposited data

How the results depend on the processing

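No member was called under any of the 17 alternatives of each comparison, where the lowest adjusted p was 0.172. Of the recomputed member fold changes, 229 kept their sign and 26 turned, for main values of at most 0.14 in size. In each comparison with DMSO, leaving out replicate 3 of both ligands is the same fit as leaving out that ligand's replicate 3. These counts therefore include a repeated fit. For HBC530 against DMSO, MT1F turned to -0.0017 with GC and length trends removed, -0.0087 with the replicate block as well and -0.031 without replicate 3 of the ligands, and MTF1 to 0.040, 0.037 and 0.077. For MsOc3HBC against DMSO, MT2A turned to -0.015 without replicate 3. For the ligand pair, MTF1 turned to -0.0032 and -0.0054 with trends removed, without and with the block, and SLC30A1 to -0.092 and -0.095, and to -0.10 without replicate 3. With 1 library left out, the values ranged from -0.031 to 0.19 for MT1F and -0.11 to 0.077 for MTF1 (HBC530 against DMSO), -0.015 to 0.22 for MT2A and -0.041 to 0.097 for MTF1 (MsOc3HBC against DMSO), and -0.085 to 0.24 for MT1X, -0.058 to 0.12 for MTF1 and -0.11 to 0.14 for SLC30A1 (ligand pair). The causes were not tested.

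Counts of called genes depended on the fit. Over all genes, 3 calls for HBC530 against DMSO became 2 to 52, 27 for MsOc3HBC against DMSO became 6 to 250, and 0 for the ligand pair became up to 1990. Of the other list genes, 1 was called without a filter for HBC530 against DMSO, beside 52 of all 35505 genes tested. The calls over all genes tested in the same fit follow in brackets. For MsOc3HBC against DMSO, 2 were called by DESeq2 (149 of 17514), 3 without a filter (250 of 35395) and 1 with all 9 libraries (27 of 18041). The replicate block called 2 (149 of 17514), removal of trends 1 (62 of 17514), and trends removed with the block 1 (80 of 17514). Without replicate 3, 2 were called (76 of 18044). Leaving out 1 library gave 0 to 2, beside 6 to 76 over all genes. For the ligand pair, 3 were called by DESeq2 (61 of 17397), 2 without a filter (12 of 34961) and 1 with all 9 libraries (4 of 18041). The block called 11 (1990 of 17397), trends removed with the block 7 (322 of 17397), and the fit without replicate 3 called 12 (1635 of 17840). The block called 0 members in all 3 comparisons, beside 16 of 17684 genes for HBC530 against DMSO and the values above for the others. With 1 library left out of a group of 3, the fit assumes that the others vary alike. At the depth of these libraries MT1E, MT1G and MT1M could not be measured.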
